A study of Homo sapiens with 16 samples.

Results

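Promoter regions with a called island, or enriched stretch, of the histone mark H3K4me1 after knockdown of KDM6B, and with none in control cells, were examined. The cells were BE2C, a neuroblastoma cell line. The regions were selected on the measured H3K4me1 values themselves. The deposited island lists of both siCtrl and both siKDM6B33 libraries were merged wherever they shared at least 1 bp, and an autosomal region was kept when it overlapped islands of both siKDM6B33 libraries and of neither siCtrl library and had a protein-coding transcription start inside it or within 1 kb. This gave 5263 gained promoter regions of 30045 merged autosomal regions. The 4 H3K4me1 libraries of the knockdown experiment therefore describe these regions and test nothing about them.

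H3K4me1 is the addition of a single methyl group to lysine 4 of histone H3. It is laid down mainly by the KMT2C and KMT2D enzymes and is best known from enhancers, while active CpG-rich promoters carry the trimethylated form at their centre with H3K4me1 on the flanks. H3K27me3 is the repressive mark of the Polycomb complex PRC2, whose subunits include EZH2, EED and SUZ12, and KDM6B is a demethylase that removes it.

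Histone marks were profiled by CUT&Tag, in which an antibody guides a transposase to cut and tag the DNA around a mark. BE2C cells received a control siRNA (siCtrl) or a single KDM6B siRNA (siKDM6B33) for 72 h, or were cultured for 72 h with 0.1% DMSO or with 2.5 µM GSK-J4, a small-molecule inhibitor of the KDM6 demethylases. H3K4me1 and H3K27me3 were each measured in 2 libraries of every group, which gave 16 libraries. All of them come from 1 cell line, the knockdown rests on 1 siRNA, and the lists hold no measure of KDM6B RNA, so they do not check the knockdown.

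The libraries differed in depth and in how far their marks overlapped. Tags in the H3K4me1 libraries averaged 0.0902 and 0.0849 per base in the genome background of siCtrl, 0.107 and 0.105 in siKDM6B33, and 0.0483 to 0.0569 in the compound experiment. The H3K4me1 islands covered 103 and 98.6 Mb in siCtrl, 115 and 114 Mb in siKDM6B33 and 68.0 to 77.7 Mb in the compound libraries. The H3K4me1 and H3K27me3 islands of same-numbered libraries shared 0.0320 to 0.0524 of their joint length in the knockdown experiment and 0.323 to 0.456 in the compound experiment. The part of depth and of this shared length in the results was not tested. In the check of cell identity, H3K4me1 islands covered 95.6% of MYCN with 5 kb on each side in all 8 libraries and 79.6% to 100.0% of TH, the first enzyme of catecholamine synthesis. Of the 7 markers of other cell types or states, FN1 and PTPRC, a fibroblast and a leukocyte marker, were at 0 in all 8. COL1A1, a fibroblast collagen, was covered at 0.505% to 25.2% and FOSL1, of the mesenchymal state, at 37.1% to 69.5%. PRRX1, VIM and the epithelial EPCAM were at 0 to 2.29% in siCtrl and at 6.92% to 25.8% in siKDM6B33, and they ranged from 0 to 18.6% in the compound libraries.

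The gained regions lay at CpG-rich promoters, and their sequences are shown first because they set these promoters apart from those that lost their island. Each line holds 300 bases of hg19, from 250 bases before the start to its first 50 bases, on the strand of the gene, with every CpG in capitals. MED15 (chr22:20861678-20861977, + strand) encodes a Mediator subunit and was without H3K27me3. NKX2-2 (chr20:21494653-21494952, − strand) and BARX1 (chr9:96717588-96717887, − strand) encode homeodomain factors of development and carried H3K27me3 in all 8 libraries. TEKTIP1 (chr19:3538919-3539218, + strand) is a promoter that lost its H3K4me1 island after knockdown and is given for contrast.
MED15: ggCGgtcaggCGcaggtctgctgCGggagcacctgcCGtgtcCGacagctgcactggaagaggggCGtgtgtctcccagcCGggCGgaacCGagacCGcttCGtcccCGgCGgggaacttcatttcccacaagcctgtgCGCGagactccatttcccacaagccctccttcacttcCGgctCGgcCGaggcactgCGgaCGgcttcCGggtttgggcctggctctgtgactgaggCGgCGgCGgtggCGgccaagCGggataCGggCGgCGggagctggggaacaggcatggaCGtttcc
NKX2-2: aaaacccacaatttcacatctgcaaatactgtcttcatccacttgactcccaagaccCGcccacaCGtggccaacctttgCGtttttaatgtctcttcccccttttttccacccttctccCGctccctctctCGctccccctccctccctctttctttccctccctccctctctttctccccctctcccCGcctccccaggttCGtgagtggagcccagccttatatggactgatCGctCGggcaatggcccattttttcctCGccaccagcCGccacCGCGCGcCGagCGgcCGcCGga
BARX1: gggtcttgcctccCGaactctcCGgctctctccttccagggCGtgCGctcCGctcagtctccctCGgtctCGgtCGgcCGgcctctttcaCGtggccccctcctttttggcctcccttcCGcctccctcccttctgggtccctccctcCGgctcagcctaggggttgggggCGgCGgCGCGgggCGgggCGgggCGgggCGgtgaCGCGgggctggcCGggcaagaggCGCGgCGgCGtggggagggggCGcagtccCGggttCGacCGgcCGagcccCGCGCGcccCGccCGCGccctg
TEKTIP1: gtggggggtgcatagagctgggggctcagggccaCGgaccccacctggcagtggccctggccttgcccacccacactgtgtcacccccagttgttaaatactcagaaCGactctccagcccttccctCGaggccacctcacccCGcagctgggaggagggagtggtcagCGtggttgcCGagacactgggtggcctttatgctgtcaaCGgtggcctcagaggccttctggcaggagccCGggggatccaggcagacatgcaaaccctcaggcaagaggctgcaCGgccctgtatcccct

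MED15 held 30 CpGs in this window, NKX2-2 18 and BARX1 38, against 9 in TEKTIP1. MED15 was printed because, among the named gene-list members without H3K27me3, its CpG ratio is the closest to the median of gained regions, TEKTIP1 because its ratio is the closest to the median of lost regions, and NKX2-2 and BARX1 because they had the highest H3K4me1 island scores among the gained regions with H3K27me3 throughout. The ratio of observed to expected CpG, which is 1 when CpG is as frequent as its C and G content predicts, was 0.854 for MED15, 0.909 for NKX2-2, 0.848 for BARX1 and 0.287 for TEKTIP1.

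Over all gained promoter regions the median CpG ratio was 0.855, with quartiles of 0.732 and 0.959, and 89.1% of them reached 0.6. It was 0.792 at the 4334 promoter regions called in all 4 knockdown-experiment libraries, where 70.0% reached 0.6, and 0.287 at the 223 promoter regions lost after knockdown, where 16.6% did. For the 6810 protein-coding genes with no H3K4me1 region at a start the median was 0.335, and for all 18877 autosomal genes it was 0.712. The gained regions had few promoters of the CpG-poor kind that made up most of the lost regions and of the genes without a region. The gain itself is what defined these classes, so the difference in CpG content is given as a description.

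**Figure D1:**
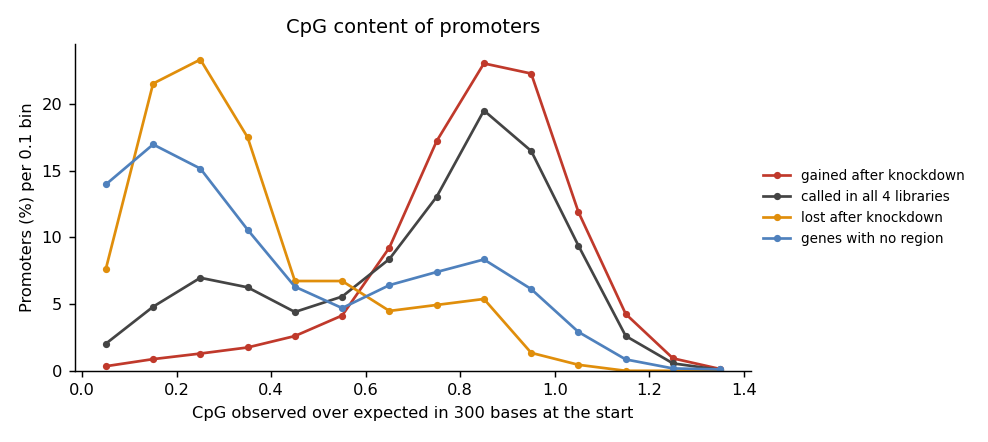
Share of promoters (y axis, percent per bin of 0.1) by the ratio of observed to expected CpG in 300 bases at the start (x axis), for promoter regions gained after knockdown, called in all 4 libraries or lost, and for genes with no region. The gained regions form 1 hump around their median of 0.855, while the lost regions and the genes without a region pile up at low ratios, around 0.287 and 0.335.

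Short sequence motifs of promoter factors were counted on both strands of the same windows. CCGGAAGT, the core bound by ETS factors, stood in 9.18% of gained promoters, 2.72% of those called in all 4 libraries and 5.78% of all 53429 annotated starts. GCATGCGC, part of the site of NRF1, a regulator of nuclear genes for mitochondria, stood in 5.93%, 3.30% and 3.89%, and AAGATGGCG, the site of YY1, in 4.43%, 1.92% and 2.54%. For E2F, the factor family held back by pRB, TTTGGCGC or TTTCCCGC was found in 3.42% of gained promoters, 2.45% of those called in all 4 and 2.93% of all starts. GGGCGG, the GC box, was present in 71.7%, 69.1% and 57.1%, and CACGTG, the E-box that MYCN can bind, in 9.14%, 9.02% and 8.17%. TATAAA ran the other way, with 4.52%, 6.05% and 8.91%. The CTCF core consensus was rare in each set, at 0.475%, 0.392% and 0.479%. GGGCGG can share bases with the E2F words. The gained promoters thus held the ETS, NRF1 and YY1 words more often than those called in all 4 libraries and than all starts, and a match is only a run of letters in this window.

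The gained regions were narrow. Their width ran from 800 bp to 19600 bp with a median of 3600 bp, the same as for the lost regions, against 7600 bp for promoter regions called in all 4 libraries. A start lay inside 5233 of them, and only 30 had it outside. Just inside the 1 kb limit were C11orf58, at 996 bp, and PDE6B, at 969 bp, with island scores in siKDM6B33 of 98.9 and 81.6 and of 298 and 268. Just outside were NFIB, a nuclear factor of development, at 1019 bp, with scores of 149 and 134, and CACNA1S, a muscle calcium channel, at 1022 bp, with 144 and 127. A region's score is the sum over its islands of the caller's score, which grows with width and depth. In 79.9% the centre of the region lay downstream of the nearest start, by a median of 467 bp over all gained regions. Exactly 2 genes shared the region in 13.6%, and 12.4% held starts on both strands. The nearest siCtrl island was a median of 65.0 kb away, and 120 of the 5263 had one within 2 kb, so most did not adjoin a region already called in control cells.

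Promoters made up much of the gain. Of the 7345 autosomal regions gained after knockdown, 2082 had no start within 1 kb and the 5263 described here did. Gained regions were 24.4% of all merged regions and 47.1% of the 11183 promoter regions. They reached the start of 5930 genes, which is 31.4% of protein-coding genes, with a range over chromosomes from 22.6% of genes on chromosome 19 to 39.7% on chromosome 15.

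The controls were not empty at these promoters. A narrow peak, called separately by the authors and not used by the selection, had its summit inside 3693 and 3597 of the 5263 regions in the siCtrl libraries and inside 5236 and 5230 in siKDM6B33. Both siCtrl libraries had a summit in 53.8% of the regions, 1 of them in 30.9% and neither in 15.3%. The highest summit stood on a median of 4 tags in each siCtrl library and 13 tags in each siKDM6B33 library. Divided by the genome background of its own library, the median height was 44.4 and 47.1 times background in siCtrl and 122 and 124 times in siKDM6B33. Among the 2826 regions with a summit in all 4 libraries, the ratio of the mean heights had a median of 3.11, and 99.6% of them were higher after knockdown. Summit heights were higher in siKDM6B33 also at the promoter regions called in all 4 libraries, at 144 and 141 times background in siCtrl and 253 and 247 times in siKDM6B33. Most of these promoters therefore had a called H3K4me1 peak in control cells already, and it was lower there than after knockdown. The regions were chosen on H3K4me1 in these same libraries, so the heights are a description.

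**Figure D2:**
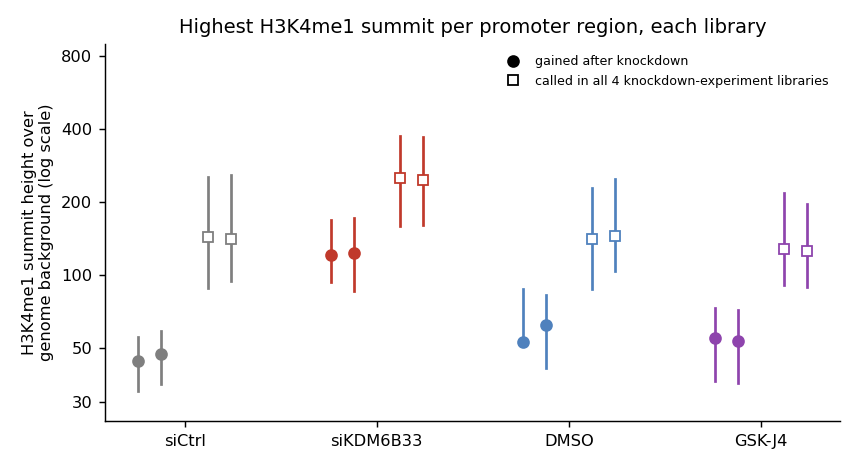
Median (symbols) and quartiles (lines), over regions that hold a summit, of the highest H3K4me1 summit in each promoter region, in multiples of the genome background (y axis, log scale), with 1 symbol per library in each group (x axis). Filled circles are gained regions and open squares regions called in all 4 knockdown-experiment libraries. The gained regions stand at 122 and 124 in siKDM6B33 and between 44.4 and 62.1 in the other 6 libraries.

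The siKDM6B33 replicates were close to each other. Inside the gained regions their islands had a Jaccard index, the shared over the joint length, of 0.749. Over all islands it was 0.719, while inside the gained regions the selection had required an island of both replicates. Across regions, the log10 island scores of the replicates had a Pearson r of 0.946 over 5263 regions and the log2 summit heights one of 0.817 over 5211. These are correlations across regions of the same libraries, which share width and sequence, and the scores were limited to regions called in both.

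At gained promoters, H3K4me1 summits were densest directly upstream of the start in all 8 libraries. Within 2 kb of the start of gained regions, siKDM6B33 had 18516 and 18220 summits and siCtrl 5736 and 5535. The 100 bp before the start was the fullest bin in each of these libraries. The 250 bp upstream held 20.7% and 20.9% of the summits in siKDM6B33, 27.5% and 27.1% in siCtrl and 26.2% to 28.1% in the compound libraries. The median position moved from 72.0 and 70.0 bp upstream in siCtrl to 14.0 and 11.0 bp downstream in siKDM6B33, so the added summits lay on both sides of the start. A lower second crest stood downstream of it in siKDM6B33 and in siCtrl.

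**Figure D3:**
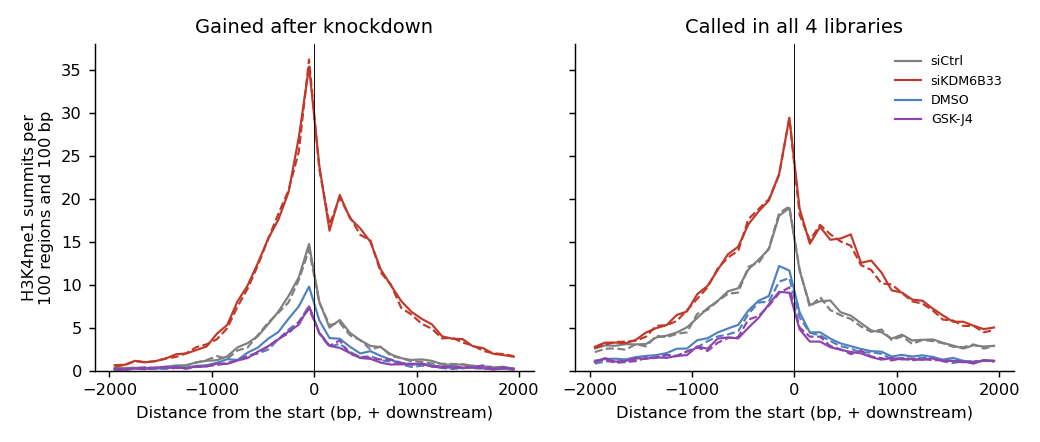
Number of H3K4me1 summits per 100 regions in bins of 100 bp (y axis) by distance from the start nearest the region centre (x axis, bp, positive downstream), 1 line per library, with replicate 1 solid and replicate 2 dashed. At gained regions the siKDM6B33 lines rise above those of the other 6 libraries on both sides of the start, and every line for the gained regions peaks in the bin just upstream of it.

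The strongest gained regions included both broadly used cell machinery and developmental regulators under H3K27me3. The highest mean island score was that of a 13400-bp region (chr6:43017201-43030600) over the starts of CUL7, a scaffold of a ubiquitin ligase, KLC4, a kinesin light chain, and MRPL2, a mitochondrial ribosomal protein. Its scores were 2238 and 2074 in siKDM6B33, and its summit height was 77.6 and 58.9 times background in siCtrl, 281 and 285 in siKDM6B33, 87.9 and 62.1 in DMSO and 73.1 and 71.5 in GSK-J4. BRD1, which encodes a bromodomain scaffold of a histone acetyltransferase, had scores of 2031 and 2027 (chr22:50213801-50223400). Its siCtrl libraries held no summit in 1 case and 58.9 times background in the other, against 309 and 266 in siKDM6B33. SMCR8 and TOP3A, the last a DNA topoisomerase, shared a region with scores of 1839 and 1840, and MEA1, KLHDC3 and RRP36 one of 18400 bp with scores of 1959 and 1651. None of these 4 regions had an island of either mark in any other group. The next in order were NKX2-2, with 1620 and 1722, and BARX1, with 1750 and 1549, both described with the H3K27me3 regions below. The widest gained regions besides that of MEA1 were those of EYA1, a developmental transcription cofactor, with 19600 bp, SAFB and its neighbour SAFB2, nuclear matrix proteins, with 18000 bp, and LHX5, a neural homeodomain factor, with 17800 bp.

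The tallest summits lay at genes with varied roles. GRB2, the adaptor that links receptors to RAS, had 2 gained regions, and the taller stood at 77.6 and 70.7 times background in siCtrl and at 505 and 599 in siKDM6B33. DZIP1, a protein of the primary cilium, went from 44.4 and 106 to 580 and 542, and SCAMP2, a secretory carrier membrane protein, from 99.8 and 82.5 to 617 and 495. UQCRC2, of respiratory complex III, had 111 and 118 in siCtrl and 533 and 514 in siKDM6B33. SEC23B, of the COPII vesicle coat, had 44.4 and 70.7 against 524 and 495. The region shared by UFD1, of the ubiquitin pathway, and CDC45, a replication helicase factor, had 144 and 58.9 against 468 and 580. In each of these 6 the lowest siKDM6B33 value was more than 3 times the highest siCtrl value. The 6 were picked by siKDM6B33 height among regions selected on the same libraries, so this separation is a description.

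Most gene lists of cell machinery held gained promoters more often than genes at large, and lists of neuronal identity less often. Against the 31.4% of all genes, a gained region lay at 24 of 30 mitosis genes (80.0%), 19 of 28 Mediator subunits (67.9%), 25 of 38 proteasome subunits (65.8%), 45 of 78 mitochondrial ribosomal proteins (57.7%), 25 of 47 DNA replication genes (53.2%), 9 of 17 cytosolic tRNA synthetases (52.9%), 19 of 36 subunits of respiratory complex I (52.8%) and 38 of 77 cytosolic ribosomal proteins (49.4%). It also lay at 13 of 22 mesenchymal-state genes (59.1%), so the lists of cell identity did not all go 1 way. The share was 42.9% of 28 genes of the pRB-E2F-CDK pathway and 41.5% of 496 ZNF zinc finger genes. It was 35.9% of 39 HOX genes, 33.3% of 12 RNA polymerase II subunits and 28.6% of 63 replication-dependent histones, and these shares lay near the background. It was 1 of 20 catecholamine and neuronal genes, where 18 had a region called in all 4 libraries, and 3 of 17 adrenergic core transcription factors, where 14 did. Olfactory receptors had 1 gained region in 389 genes and keratins none in 55, and 387 and 50 of these genes had no region at all. Taking only the genes with an H3K4me1 region at a start as background, 49.1% had a gained region, and the mitosis list stood at 85.7%, Mediator at 82.6%, the mesenchymal list at 68.4%, the ZNF genes at 63.8%, HOX at 48.3% and the pRB-E2F-CDK list at 48.0%. With lists of equal covered length, where 24.98% of all genes had a gained region, the shares were 70.0% for mitosis, 47.4% for the proteasome, 43.6% for mitochondrial ribosomal proteins, 35.7% for Mediator, 34.0% for DNA replication, 50.0% for the mesenchymal list, 27.6% for ZNF genes and 23.1% for HOX. The lists were put together with results of these data known, and no test was made of them.

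**Figure D4:**
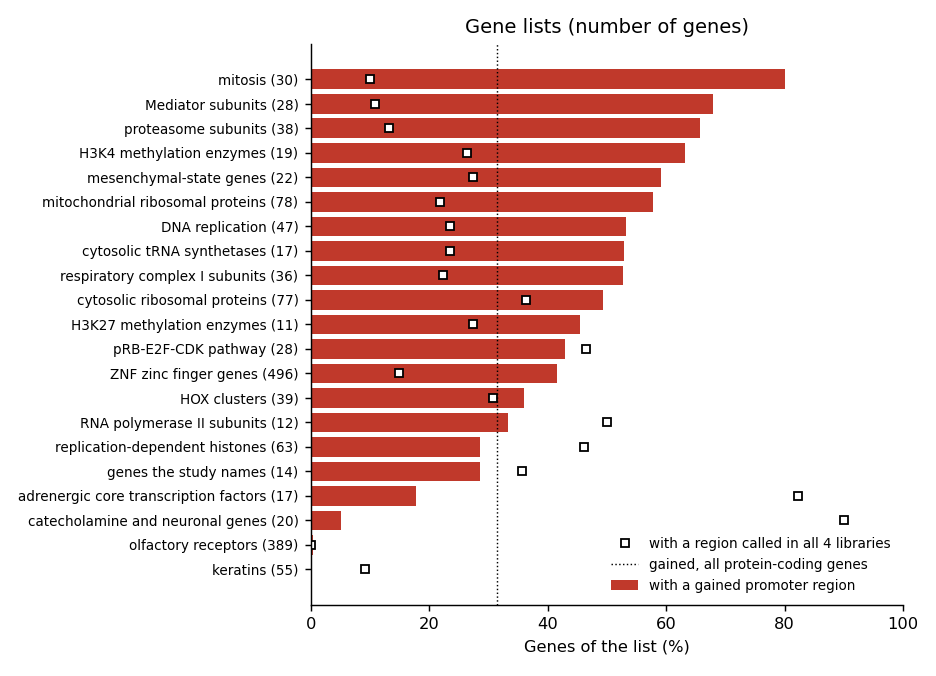
Percent of the genes of each list (x axis, number of genes in brackets) with a gained promoter region (bars) and with a promoter region called in all 4 knockdown-experiment libraries (squares), with the share of gained regions over all protein-coding genes, 31.4%, as a dotted line. The mitosis list reaches 80.0%, while the neuronal list, at 5.00%, has 90.0% of its genes in regions called in all 4 libraries.

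Within the mitosis list the region shared by CDCA8, of the chromosomal passenger complex, and C1orf109 scored highest, with 1057 and 1075 in siKDM6B33. CDK1, the kinase that drives entry into mitosis, stood at 55.4 and 70.7 times background in siCtrl and 365 and 352 in siKDM6B33. The mitotic kinase PLK1 had no summit in 1 siCtrl library and 35.4 times background in the other, and 140 and 181 in siKDM6B33. AURKA, the kinase of the spindle poles, had none in either siCtrl library and 131 and 143 in siKDM6B33. No region of these 4 genes had an H3K4me1 island in the compound experiment. BIRC5, the passenger protein survivin, and AURKB, its partner kinase, were gained with low island scores of 128 and 114 and of 83.4 and 103. BUB1, CCNE1, E2F8, CYRIA and SUZ12, which the study discusses, had no H3K4me1 region at a start in the knockdown experiment, and MYCN, NAV2, AKT1, CDKN1A and KDM6B itself had one in all 4 libraries.

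In the pRB-E2F-CDK list, gained regions lay at E2F3, E2F5, E2F6, RB1, RBL2, TFDP1, TFDP2, CDK2 and CCND2, while E2F1, E2F2, E2F4, CDK4, CDK6 and CCND1 had regions called in all 4 libraries. E2F6, a repressive family member, had the highest scores of the list with 619 and 594, and its summits stood at 55.4 and 23.6 times background in siCtrl and 168 and 152 in siKDM6B33. CDKN2C, an inhibitor of CDK4 and CDK6, scored 512 and 509. In the DNA replication list, ORC2, a subunit of the origin recognition complex, scored 648 and 781, and POLE, the leading-strand polymerase, 687 and 698 in a region shared with PXMP2.

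The enzymes of H3K4 and H3K27 methylation were partly gained themselves. Of 19 H3K4 genes, 12 had a gained region (63.2%, beside 31.4% of all genes). They were the methyltransferase KMT2C, the core subunits ASH2L, RBBP5, WDR5 and DPY30, the associated CXXC1, MEN1, NCOA6 and PAXIP1, and the demethylases KDM1B, KDM5A and KDM5B. KMT2B, KMT2D, SETD1A, SETD1B and PAGR1 had regions called in all 4 libraries, and KMT2A and KDM1A had none. KDM5B had scores of 617 and 698. Of 11 H3K27 genes, EZH1, EZH2, EED, RBBP4 and MTF2 had a gained region (45.5%) and JARID2, PHF19 and KDM6B one called in all 4. EED stood at 66.5 and 70.7 times background in siCtrl and 215 and 257 in siKDM6B33, and EZH2 at 44.4 in 1 siCtrl library, with no summit in the other, and 103 and 95.2 in siKDM6B33. The KDM5B and EED regions carried H3K27me3 islands in all 4 knockdown-experiment libraries. The EZH2 region was a weak one, with scores of 85.4 and 102 against medians of 235 and 231 over gained regions.

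The compound experiment was independent of the selection, and there most gained promoters had no H3K4me1 island with or without the inhibitor. Islands lay in 641 and 482 of the 5263 regions in DMSO, or 12.2% and 9.16%, and in 452 and 493 in GSK-J4, or 8.59% and 9.37%. The groups overlapped, and their means of 10.7% ± 2.14 (SD, n = 2) and 8.98% ± 0.551 (SD, n = 2) differed by -1.69 percentage points (two-sided exact permutation test, p = 0.667, where 0.33 is the smallest p that 2 libraries against 2 allow). With lists of equal covered length the groups did not overlap and differed by -2.67, with the smallest possible p of 0.33 in the exact permutation test. Regions gained at equal covered length gave -2.23 and summits -3.40. The median summit height was 52.8 and 62.1 times background in DMSO and 54.8 and 53.7 in GSK-J4, in the 2345 to 2822 regions that held a summit, a difference of -3.18 (exact permutation test, p = 1.0, n = 2 per group). Without the second DMSO library this difference was 1.48, and over all gained regions, with 0 where there was no summit, it was -17.6 (exact permutation test, p = 1.0). The last value rests on the first DMSO library, which alone held a summit in most gained regions (53.6%). The others held one in 44.6% to 46.1%, so their medians were 0. The height was thus not told apart between DMSO and GSK-J4 with these libraries, and the island share moved from -0.181 points without the first DMSO library to -3.20 without the second.

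Promoter regions called in all 4 knockdown-experiment libraries differed from gained regions in the same compound libraries. The selection had already required islands of the former and none of the latter in siCtrl cells of this line, which leans the comparison toward a lower share at gained regions. The regions called in all 4 held an island in 83.9% and 82.1% of cases in DMSO and in 72.4% and 73.8% in GSK-J4. The share at gained regions was lower in 4 of 4 compound libraries, with differences from -73.0 to -63.8 percentage points and a mean of -68.2 ± 4.80 (SD, n = 4; exact sign-flip permutation test, p = 0.13, the smallest that 4 libraries allow). Regions called in all 4 were wider, and the difference was -58.9 points in windows of 1 kb on each side of the start, -38.3 when islands had to cover 50% of the region and -35.4 by summits, with the gained regions lower each time. The compound libraries were shallower than those of siCtrl, and the part of depth was not tested.

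Most gained promoters had no island to lose with GSK-J4. An island was called in both GSK-J4 and neither DMSO library at 19 gained regions (0.361%), against 1.1% of all promoter regions, and in both DMSO and neither GSK-J4 library at 44 (0.836%), against 3.15%. Of the 415 gained regions with an island in both DMSO libraries these 44 were 10.6%, beside 7.71% of the 3358 such regions among those called in all 4, so the share over all gained regions was limited by the few islands in DMSO. Of the 4555 gained regions with an island in neither DMSO library, 0.417% gained 1, beside 9.48% of 496. RNF187, a ubiquitin ligase, was the highest scorer of the first kind, with a summit at 87.9 times background in 1 DMSO library and none in the other, and 238 and 179 in GSK-J4. H3K27me3 islands covered 58.3% and 95.8% of the same region in the GSK-J4 libraries and none of it in DMSO. ELOB, an elongin subunit, and TACR1, the receptor of substance P, were others. ZFP36L1, an RNA-binding protein of mRNA decay, was among the second kind, with 176 and 145 in DMSO and 54.8 and 71.5 in GSK-J4, as was COL14A1, a collagen. The regions of TACR1, ZFP36L1 and COL14A1 carried H3K27me3 in all 8 libraries.

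H3K27me3 divided the gained promoters. In the H3K27me3 libraries of the knockdown experiment, 959 of them (18.2%) had an island in all 4, 229 (4.35%) in 1 to 3 and 4075 (77.4%) in none. The regions with H3K27me3 held most of the H3K4me1 islands that the compound experiment had at gained promoters, 559 of 641 and 400 of 482 in DMSO and 393 of 452 and 434 of 493 in GSK-J4. In DMSO these islands lay at 58.3% and 41.7% of the 959 regions and at 1.62% and 1.72% of the 4075. In GSK-J4 they lay at 41.0% and 45.3% against 1.28% and 1.18%. The difference was 45.1 ± 7.96 percentage points (SD, n = 4), with the regions with H3K27me3 higher in 4 of 4 libraries by 39.7 to 56.7 (exact sign-flip permutation test, p = 0.13, the smallest possible). By summits in place of islands it was 15.7. This split was made after its values were seen. Beside it stands the shared length of the 2 marks' islands, which was 0.323 to 0.456 of the joint length in the compound experiment and at most 0.0524 in the knockdown experiment, and its part in the difference was not tested. In the siCtrl H3K4me1 libraries the same regions held summits less often than the regions without H3K27me3, in 59.2% and 54.5% against 72.4% and 71.3%, and lower ones, at 33.3 and 35.4 times background against 44.4 and 47.1. After knockdown they stood at 112 and 105 against 131 and 124.

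**Figure D5:**
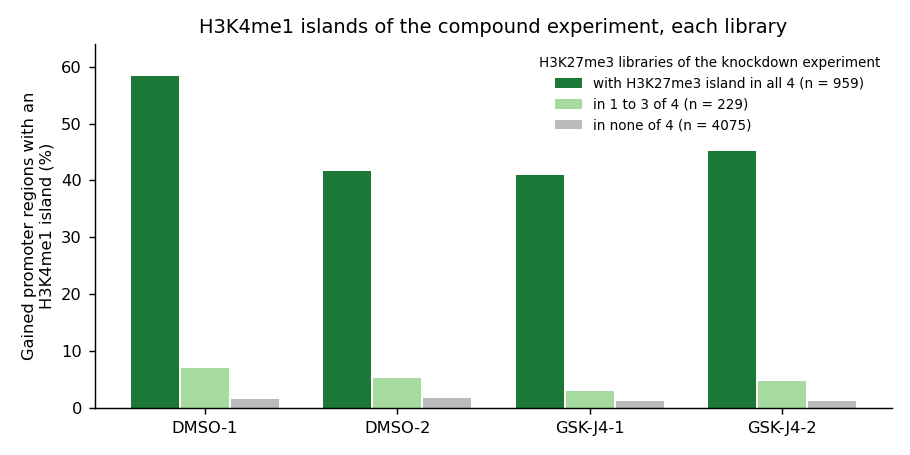
Percent of gained promoter regions with an H3K4me1 island (y axis) in each library of the compound experiment (x axis), for regions with an H3K27me3 island in all 4, in 1 to 3 or in none of the knockdown-experiment libraries. Regions with H3K27me3 in all 4 reach 41.0% to 58.3%, and regions with none stay at 1.18% to 1.72%.

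The highest scoring regions with H3K27me3 included several developmental transcription factors. In 691 gained regions an H3K27me3 island was present in all 8 libraries. The highest scoring were NKX2-2, a patterning factor of the ventral neural tube, BARX1 of the jaw and stomach, GSX1 of the forebrain, CSMD1, a membrane protein of neurons, HELT, a factor of midbrain GABA neurons, and OSR1 of the kidney and heart. NKX2-2 (chr20:21484801-21502200) stood at 66.5 and 82.5 times background for H3K4me1 in siCtrl, 215 and 228 in siKDM6B33, 158 and 104 in DMSO and 128 and 107 in GSK-J4. BARX1 (chr9:96709601-96723800) had no summit in either siCtrl library, 365 and 362 in siKDM6B33, 281 and 186 in DMSO and 201 and 179 in GSK-J4. OSR1 had 58.9 in 1 siCtrl library and none in the other, 187 and 162 in siKDM6B33, 193 and 124 in DMSO and 164 and 197 in GSK-J4. At these 3 the siCtrl libraries, where the selection required no island, were lower than the other 6. The others did not share this order, since GSX1 had 33.3 in 1 siCtrl library and no summit in either DMSO library, HELT had 44.4 in 1 siCtrl library and none in 1 DMSO library, and CSMD1 had 22.2 and 35.4 in siCtrl and none in any compound library. The islands of the 2 marks shared 0.323 to 0.456 of their joint length in the compound experiment. The part of this in the heights here and below was not tested.

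Some gene lists lay mostly on 1 side of this division. Of 13 gained regions at mesenchymal-state genes, which mark the less differentiated form of neuroblastoma cells, 10 had H3K27me3 in all 4 knockdown-experiment libraries, and 8 of 11 gained regions of the HOX clusters did. None of 25 at mitosis genes, 25 at DNA replication genes, 44 at mitochondrial ribosomal proteins or 19 at complex I subunits did, and 1 of 27 at proteasome subunits. PRRX1, a core mesenchymal factor, had no summit in 1 siCtrl library and 35.4 times background in the other, 224 and 257 in siKDM6B33, 158 and 145 in DMSO and 164 and 125 in GSK-J4. RUNX2, a factor of bone and mesenchyme, had none in siCtrl, 159 and 133 in siKDM6B33, 176 and 124 in DMSO and 73.1 and 125 in GSK-J4. VIM, the mesenchymal intermediate filament, had 55.4 and none in siCtrl and 168 and 162 in siKDM6B33. The region shared by HOXA3 and HOXA7, body axis factors, had none and 23.6 in siCtrl and 131 and 152 in siKDM6B33, while that of HOXD9 and HOXD10 had no H3K27me3 island and stood at 55.4 and 58.9 in siCtrl and 150 and 124 in siKDM6B33. Of the adrenergic factors, SOX11 and INSM1 carried H3K27me3 in all 8 libraries. OR1F1, the lone olfactory receptor, carried it in all 4 of the knockdown experiment.

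The direction of the H3K27me3 calls at gained promoters after knockdown depended on how they were counted. Islands lay in 1071 and 1072 of the 5263 regions in siCtrl, or 20.3% and 20.4%, and in 1052 and 1040 in siKDM6B33, or 20.0% and 19.8%. The mean differed by -0.485 percentage points, with the siKDM6B33 libraries below both siCtrl libraries (two-sided exact permutation test, p = 0.33, the smallest possible, n = 2 per group). Over the whole genome the H3K27me3 islands went from 53.7 and 54.2 Mb to 89.8 and 87.3 Mb in the same libraries. Counting summits in place of islands turned the direction, to 4.89 points higher in siKDM6B33, and lists of equal covered length gave -5.10. Called in both siKDM6B33 and neither siCtrl library were 20 gained regions (0.38%), beside 0.626% of all promoter regions, with TRAPPC2L, PPP1R12A, a myosin phosphatase subunit, and the kinase NLK among the top. Called in both siCtrl and neither siKDM6B33 library were 32 (0.608%), beside 0.563%, and these included BMI1, a subunit of Polycomb complex PRC1, and SMARCA5, a chromatin remodeler. At the 959 regions with H3K27me3 in all 4, the highest summit stood on 16 tags in each siCtrl library and on 16 and 15 in siKDM6B33, which over the higher background of the latter made 405 and 399 times background against 297 and 284.

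The H3K27me3 share at gained promoters overlapped between DMSO and GSK-J4. It was 14.3% and 14.5% in DMSO and 16.7% and 14.1% in GSK-J4, a difference of 1.06 percentage points (two-sided exact permutation test, p = 1.0, n = 2 per group). The first GSK-J4 library set its sign, and without it the difference was -0.238. By summits the difference was 6.66, with 33.0% and 35.5% in DMSO and 46.5% and 35.3% in GSK-J4. That library held 16676 H3K27me3 islands against 7175 to 8006 in the other 3 compound libraries. Gains and losses were called at 12 (0.228%) and 4 (0.076%) gained regions, beside 1.43% and 0.0537% of all promoter regions.

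Compared with promoter regions called in all 4 H3K4me1 libraries, gained regions held more H3K27me3 islands in the knockdown experiment and fewer in the compound experiment. In the knockdown experiment the means were 20.1% and 17.4%, and gained regions were higher in 4 of 4 libraries, by 1.86 to 3.46 percentage points (mean 2.73; exact sign-flip permutation test, p = 0.13, n = 4). The share with an H3K27me3 summit within 1 kb of the start, a window of equal width for both kinds of region, was also higher in 4 of 4, at 28.7% and 29.3% against 24.3% and 24.2% in siCtrl and at 33.0% and 33.6% against 28.7% and 29.4% in siKDM6B33. Over whole regions, which were wider where called in all 4 (medians of 7600 and 3600 bp), gained regions held a summit less often in each of these libraries. In the compound experiment they were 14.9% and 42.5%, and gained regions were lower in 4 of 4 libraries, with differences from -46.3 to -20.0 (mean -27.7; exact sign-flip permutation test, p = 0.13, n = 4). Over all 8 libraries the difference was -12.5 ± 18.2 (SD, n = 8; exact sign-flip permutation test, p = 0.13, where 0.00781 is the smallest possible), so this pooled value joins experiments that point in opposite directions. By summits within 1 kb of the start the pooled difference was 0.601, from 4.48 in the knockdown experiment and -3.28 in the compound experiment, while over whole regions of unequal width it was -13.8. By islands the difference was -8.28 in windows of 1 kb on each side of the start, -7.62 without the first GSK-J4 library and -3.08 when islands had to cover 50% of the region. KDM6B, whose own promoter was called in all 4 H3K4me1 libraries, was at 0 for H3K27me3 cover in the 4 knockdown-experiment libraries and at 33.4% to 77.2% in the 4 compound libraries. Whether the compound H3K27me3 lists at H3K4me1 promoters hold H3K27me3 alone was not tested.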

How the data were processed

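CUT&Tag libraries of BE2C cells (8 groups, 2 libraries each) were analysed from their 32 deposited region lists, which hold no reads. The authors aligned reads to hg19 with BWA (version 0.7.12), removed duplicates with Picard (version 1.65) and kept unique fragments with SAMtools (version 1.3.1). They called islands with SICER (version 1.1, window 200 bp, gap 600 bp) and narrow peaks with MACS2, library by library, without a control library. The deposited island values are SICER scores. The deposited peak values are the fold enrichment ratio at the summit and −log10 p and −log10 q. Lists were not scaled to each other or to the spike-in.

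The gained regions, gene lists and tests were chosen with earlier results of these data known. Starts were the 53429 distinct autosomal starts of basic protein-coding transcripts of GENCODE v44 mapped to GRCh37, and sequences were read from GRCh37. Each gained region was described at the start nearest its centre. The whole-number pileup at a summit and the local background were solved from its fold enrichment and −log10 p, and the lowest of the 20 commonest backgrounds was taken as the genome background of a library. Groups were compared by exact permutation over libraries, and region classes by exact sign-flip over libraries, both two-sided. The study describes 2 biological replicates, and the labels do not say whether these were separate cultures. The p-values place each observed difference among the arrangements or signs that these libraries allow. Sign-flip tests of region classes join libraries of different groups. Named genes were the top scoring of each list (up to 4), the 6 highest by score and by summit height, the 4 widest, the top 6 that changed in another comparison, and those beside the 1 kb limit. Other list members are named to complete a list. Scripts were tested on simulated lists. Alternatives covered the distance to a start, list lengths, overlap, narrow peaks, left-out libraries and the replicate block. Python (version 3.11.15), NumPy (version 2.4.6), pandas (version 2.3.3) and SciPy (version 1.17.1) were used.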

Additional observations from a re-analysis of the deposited data

Results flagged for a closer look

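Chromosome X lies outside the autosomal comparisons, and there 117 of 203 promoter regions (57.6%) were called in both siKDM6B33 libraries and neither siCtrl library, while 4 were called the other way. On the autosomes 47.1% of 11183 promoter regions were gained. The chromosome X regions were found by the same rule in the same libraries, so their standing above the controls follows from the selection. They are mentioned because the comparisons did not use this chromosome.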

How the results depend on the processing

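The number of gained promoter regions stayed between 4063 and 5632 under all alternatives but 1. With lists of equal covered length there were 4063, and 3932 of the original 5263 (74.7%) overlapped one of them. Requiring no siCtrl summit in the region left 804. Leaving out 1 library at a time gave 5567 to 5632. The CpG ratio was 0.785 in 1 kb centred on the start, where all genes had 0.683, and 0.857 over every start of the regions. Of the 21 gene lists, 15 stood above their background share, and 13 or 14 did under the 2 alternatives.

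With a single library left out, the H3K4me1 share changed with GSK-J4 by -3.20 to -0.181 percentage points, the H3K27me3 share by -0.599 to -0.371 after knockdown and by -0.238 to 2.35 with GSK-J4, and the summit height by -7.85 to 1.48. The reversals were the H3K27me3 share after knockdown by summits (4.89), the H3K27me3 share with GSK-J4 at equal covered length (-0.342) or without its first GSK-J4 library (-0.238), the summit height without the second DMSO library (1.48), and the H3K27me3 difference from regions called in all 4 libraries within the knockdown experiment (2.73) or by summits within 1 kb of the start (0.601), both added after the data were seen. Over all 8 libraries that difference passed the 0.05 threshold by summits in whole regions, at -13.8 points (exact sign-flip permutation test, p = 0.00781), but those called in all 4 were wider, and its other alternatives gave p from 0.13 to 0.68. Leaving out 1 library gave -14.7 to -7.62. The H3K4me1 difference from those regions was -69.7 to -66.6, and the split by H3K27me3 was 41.3 to 46.9. The cause of these shifts was not tested.

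Same-numbered libraries did not deviate together (correlations from -0.043 to 0.015 over 4334 regions), so the numbers do not pair them. With the replicate block the differences were the same, -1.69, -0.485 and 1.06 points and -3.18 in height. The lowest p was 0.5 (exact sign-flip permutation test over 2 pairs). This is the smallest that 2 pairs allow, so the block could not have changed a call.

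The lists limit the depth of reading. A region without an island or summit is below the callers' thresholds in that library, not without the mark, and median summits of 3 or 4 tags in the control and compound libraries rest on few tags.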
